A study of Homo sapiens with 21 samples.

Results

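FOXA1 binding was set against the promoter mark H3K4me3 in CAMA1, an established line of oestrogen receptor-positive breast cancer cells with amplified FGFR1. The members are the places where a narrow peak of FOXA1 and one of H3K4me3 fell together on chromosomes 1 to 22 and X. A reproducible region is a merged stretch holding a peak of both replicate lists of a target, with at least 1 bp of overlap. Of 34260 reproducible H3K4me3 regions, 19976 (58.3%) overlapped a reproducible FOXA1 region, and of 104200 FOXA1 regions, 22312 (21.4%) overlapped H3K4me3. The regions were split by place into 12476 H3K4me3 regions within 1 kb of either end of a protein-coding gene, called gene ends below, and 21784 away from them.

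The 4 libraries used here are 2 of H3K4me3 (Abcam ab8580) and 2 of FOXA1 (antibody to HNF-3α, clone Q6), out of 21 samples in a study of FGFR1 on chromatin. All came from untransfected cells of low passage that had been kept without oestradiol for 48 h, so no group here shows FOXA1 or H3K4me3 with hormone present. H3K27ac, RNA polymerase II phosphorylated at serine 5 (Pol II S5P) and FGFR1 were profiled in 2 libraries each in the same line and conditions and serve below as further readouts. The labels do not say whether replicates came from separate cultures, so the spread between lists may be technical.

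FOXA1 is a forkhead transcription factor that can bind its sites on nucleosomal DNA and opens chromatin for the oestrogen receptor in luminal breast cells. It is known mostly as an enhancer factor. H3K4me3 is placed around transcription start sites by the SET1 and MLL complexes and flanks the nucleosome-depleted stretch just upstream of an active start. 

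The line was checked against marker genes, read as H3K4me3 at a gene end. Of 9 luminal markers 8 were marked, namely GATA3, FOXA1, SPDEF, ELF3, XBP1, KRT8, KRT18 and KRT19, and FOXA1 lay at 7. The exception was ESR1, the oestrogen receptor, whose gene record (chr6:151656672-152129619) has no H3K4me3 within 1 kb of its ends. Inside it lay 12 H3K4me3 regions of 408 to 5177 bp, of which 10 overlapped FOXA1 and 3 held a summit of both FOXA1 lists. Of all H3K4me3 regions away from gene ends, 66.9% overlapped FOXA1 and 44.8% held a summit of both lists. H3K4me3 was found at 8 of 15 basal and mesenchymal genes, 3 of 10 haematopoietic and 4 of 10 neuronal and hepatic genes, against 66.6% of all protein-coding genes. The basal keratins KRT5 and KRT14, TP63, the leukocyte gene PTPRC and albumin had none. Other members of the same lists were marked, among them ZEB1, CDH2, TWIST1, SNAI2, SPI1, CD14, SYT1 and APOA1.

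The sequences of 4 promoters give examples of a FOXA1 summit near a forkhead match on H3K4me3. They were chosen because a FOXA1 summit of either list and a forkhead match lie in the same promoter window at a gene with strong FOXA1. All 4 held a summit of each list. Of the H3K4me3 promoters with both summits only 20.2% held such a match, so the 4 are not typical. Each run gives the 250 bases before an annotated start, 5′ to 3′ on the strand of the gene, from RefSeq (GRCh38.p14, whose primary assembly is that of hg38). Capitals mark the forkhead match on either strand, which is TGTTTAC in MYB, TGTTTGC in FOXA1 and RHOH, and TATTTAC in SPDEF.
SPDEF, chr6:34556330-34556579, minus strand: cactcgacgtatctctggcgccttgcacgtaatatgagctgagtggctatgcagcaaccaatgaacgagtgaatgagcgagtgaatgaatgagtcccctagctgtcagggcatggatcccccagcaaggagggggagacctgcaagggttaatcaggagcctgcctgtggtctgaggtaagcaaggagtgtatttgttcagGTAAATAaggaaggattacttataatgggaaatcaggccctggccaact
FOXA1, chr14:37595250-37595499, minus strand: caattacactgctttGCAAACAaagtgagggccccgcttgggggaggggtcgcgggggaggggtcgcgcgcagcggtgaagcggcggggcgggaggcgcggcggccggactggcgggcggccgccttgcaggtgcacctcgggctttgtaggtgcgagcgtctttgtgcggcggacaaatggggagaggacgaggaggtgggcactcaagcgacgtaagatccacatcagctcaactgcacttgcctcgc
MYB, chr6:135181058-135181307, plus strand: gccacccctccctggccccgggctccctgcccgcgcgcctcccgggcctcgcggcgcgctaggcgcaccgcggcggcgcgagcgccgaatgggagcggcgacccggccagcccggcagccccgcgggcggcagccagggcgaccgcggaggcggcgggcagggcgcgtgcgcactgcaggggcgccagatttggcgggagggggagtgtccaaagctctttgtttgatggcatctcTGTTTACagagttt
RHOH, chr4:40190830-40191079, plus strand: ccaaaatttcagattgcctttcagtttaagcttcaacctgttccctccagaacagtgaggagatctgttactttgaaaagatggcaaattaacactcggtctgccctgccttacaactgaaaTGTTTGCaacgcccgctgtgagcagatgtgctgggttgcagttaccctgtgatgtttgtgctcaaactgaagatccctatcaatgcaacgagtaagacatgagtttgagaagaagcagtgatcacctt

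At SPDEF, which codes for an ETS factor of luminal cells, the match TATTTAC begins 49 bp upstream of the start. The summit of list 1 lay on it, 45 bp upstream, and that of list 2 just past it, 39 bp upstream. The authors' fold enrichments there were 62.6 and 53.2, so this is one of the strongest FOXA1 peaks at any promoter. At FOXA1 itself the upstream summits lay 225 and 238 bp before the start, beside TGTTTGC, with folds of 14.8 and 15.8. At MYB, a proto-oncogene expressed in luminal tumours, TGTTTAC begins 14 bp upstream and the summits lay at the start itself and 16 bp before it, with folds of 19.0 and 18.9. At RHOH, which codes for a small GTPase of blood cells, the summits of 12.1 and 9.56-fold lay 83 and 79 bp upstream, and the match was 42 bp from the first. A match is a description of the letters and does not show which bases FOXA1 contacted.

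The 2 H3K4me3 lists held 41399 and 38624 peaks and the FOXA1 lists 123582 and 127427. Each list was scored by the authors' peak caller against one background for the whole genome, 2.66 and 2.53 fragments per position for H3K4me3 and 3.79 and 4.33 for FOXA1, which is the only measure of depth used here. The 2 lists of a target shared most of their peaks: 85.4% and 93.4% of H3K4me3 peaks and 85.2% and 82.3% of FOXA1 peaks were met in the other list. The highest pileup was exactly 400 fragments in all 4 lists, at 14 and 11 H3K4me3 peaks and at 1 peak of each FOXA1 list, so the top of that scale is truncated. Strength is given below as a percentile of fold enrichment within a list, averaged over both lists.

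FOXA1 overlapped a smaller share of the H3K4me3 regions at gene ends than of those elsewhere. At gene ends 5411 of 12476 regions (43.4%, 95% Wilson interval 42.5 to 44.2) carried FOXA1, and away from them 14565 of 21784 (66.9%, 66.2 to 67.5). The odds ratio was 0.380 (95% Woolf interval 0.363 to 0.397). Across the 4 pairs of single lists the shares were 47.5% to 48.9% at gene ends and 67.0% to 67.9% away, with odds ratios of 0.444 to 0.453, so the gap was far larger than the spread between lists. All intervals here cover counting error over regions only.

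How large the gap was depended on what counted as FOXA1 at a region. When a summit of each FOXA1 list had to lie inside the H3K4me3 region, 40.6% of gene-end regions and 44.8% of the others qualified, and the odds ratio rose to 0.839 (0.802 to 0.877). In regions of similar width it fell to 0.236 (0.222 to 0.251). Of the regions overlapped by FOXA1, 92.2% held both summits at gene ends but 67.0% away, where many FOXA1 peaks touched a narrow H3K4me3 region from the side. Counted per length, FOXA1 summits were denser away: 262 and 268 per Mb of gene-end H3K4me3 in list 1 and list 2, 569 and 570 per Mb away, and 34.8 and 36.1 per Mb of the remaining genome.

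At gene ends, the H3K4me3 regions with FOXA1 were the wide ones. Their median width was 2742 bp (quartiles 2080 and 3553), against 2025 bp (1342 and 2609) without FOXA1. A region with FOXA1 was wider than one without with probability 0.701 (95% DeLong interval 0.691 to 0.710), and 0.701 to 0.705 over the single pairs. Over 5 width classes the share overlapped by FOXA1 was 32.6%, 26.7%, 21.9%, 31.8% and 59.8%, lowest in the middle class. With a summit of both lists inside it was 9.05%, 16.2%, 18.2%, 30.0% and 59.2%, a rise in every class. By both counts it was highest in the widest class, 2404 to 17483 bp, which held 5750 of the gene-end regions. A wider region has more length in which a summit can fall, and summit density did not rise steadily. From the narrowest to the widest class it was 305, 275, 198, 206 and 290 per Mb in list 1. In list 2 it was 310, 291, 204, 208 and 297 per Mb. Away from gene ends the share overlapped stayed between 62.9% and 73.3%. That with both summits inside rose from 18.6% through 43.6%, 61.3% and 64.8% to 71.5%. Summit density away was highest in the second class, at 726 and 732 per Mb, and lowest in the widest, at 413.1 and 410.5 per Mb.

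**Figure D1:**
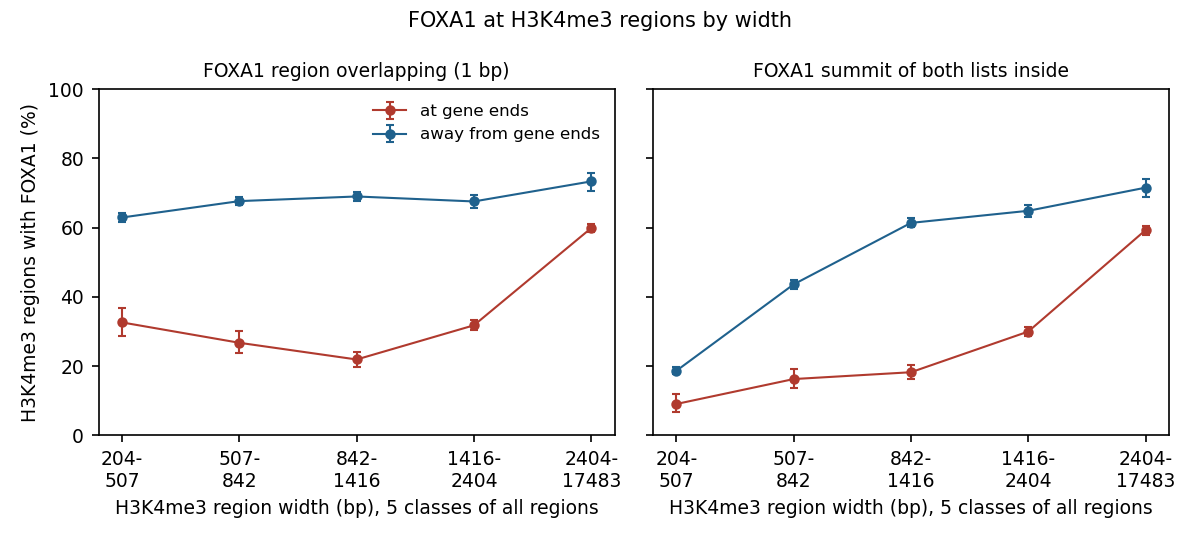
Share of H3K4me3 regions with FOXA1 (%) in 5 width classes that split all 34260 regions equally, at gene ends (red) and away (blue), with 95% Wilson intervals as bars; on the left any overlap counts, on the right a summit of both FOXA1 lists must lie inside. At gene ends the share rose to 59.8% in the widest class, and away the left panel is nearly flat. On the right the share rises with each class at both places, away from 18.6% to 71.5%. Wider regions also have more length to hold a summit.

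The 5 widest of the bound regions at gene ends were 15398 to 17483 bp long. TRPS1, a GATA-type repressor, had 17483 bp of H3K4me3 with 10 and 12 FOXA1 summits in list 1 and list 2, the strongest at 25.2 and 25.9-fold. IRX5, an Iroquois homeobox factor, had 17069 bp with 7 and 8 summits and FOXA1 at 53.0 and 51.2-fold. TFAP2A, an AP-2 factor, had 16568 bp with 8 and 10 summits of up to 14.4 and 12.8-fold. TBX3, a T-box factor, differed from these: its 16604 bp held 2 summits in each list, of up to 30.9 and 23.6-fold. The fifth region, 15398 bp shared by SYCP2, PPP1R3D and FAM217B, held 8 and 9 summits. Several summits in one region were more common at gene ends. There 29.3% and 29.2% of the bound regions held 2 or more in list 1 and list 2, against 7.87% and 7.42% away. The bound regions at gene ends were also longer, at a median of 2742 bp against 760 bp away. Per Mb of H3K4me3, summits were denser away, at 569 and 570 against 262 and 268.

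H3K4me3 itself was stronger where FOXA1 was present at gene ends. The median H3K4me3 percentile was 87.0 with FOXA1 and 78.1 without, in fold enrichment 94.8 against 82.5 in list 1 and 95.8 against 82.2 in list 2. The probability of the higher value was 0.649 (0.639 to 0.659), and 0.661 to 0.666 over the single pairs. Among regions of similar width it was 0.523, so most of this difference went with width. Away from gene ends the order was the opposite: H3K4me3 regions with FOXA1 had a median percentile of 38.1 and those without 52.7, a probability of 0.351 (0.343 to 0.359), and 0.417 to 0.436 over the single pairs. That direction turned when a FOXA1 summit of each list had to lie inside, to 0.550 (0.543 to 0.558).

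FOXA1 strength at gene ends was close to that outside H3K4me3, while it was higher in H3K4me3 away from gene ends. The median FOXA1 percentile was 52.1 in H3K4me3 at gene ends (5323 regions), 52.9 outside H3K4me3 (77791 regions) and 78.9 in H3K4me3 away from gene ends (16989 regions). In fold enrichment these were 6.68, 6.89 and 14.0 in list 1, and 6.75, 6.75 and 13.5 in list 2. Between gene ends and the outside the probability of the stronger peak was 0.492 (0.484 to 0.501), an interval that holds 0.5. Without H3K4me3 list 1 it was 0.487 (0.478 to 0.495), an interval that leaves 0.5 out. Other alternatives moved it between 0.485 and 0.514, with intervals that left 0.5 on either side, so no order is read from it. Between the H3K4me3 regions away and the outside it was 0.702 (0.698 to 0.707), and 0.704 to 0.715 over the single pairs.

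The same order shows when the FOXA1 regions are ranked. Of the 10% of FOXA1 regions with the highest strength, 45.1% lay in H3K4me3 away from gene ends and 4.21% in H3K4me3 at gene ends. Of the 10% with the lowest the shares were 9.60% and 7.60%. FOXA1 regions at gene ends were 6.74% of all, and 75.8% of those carried H3K4me3. Peaks were also met again in the other FOXA1 list less often at promoters, for 85.4% and 83.5% of the peaks of list 1 and list 2, than in H3K4me3 away, for 94.1% and 92.9%, and a little more often than outside H3K4me3, for 83.0% and 79.6%.

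**Figure D2:**
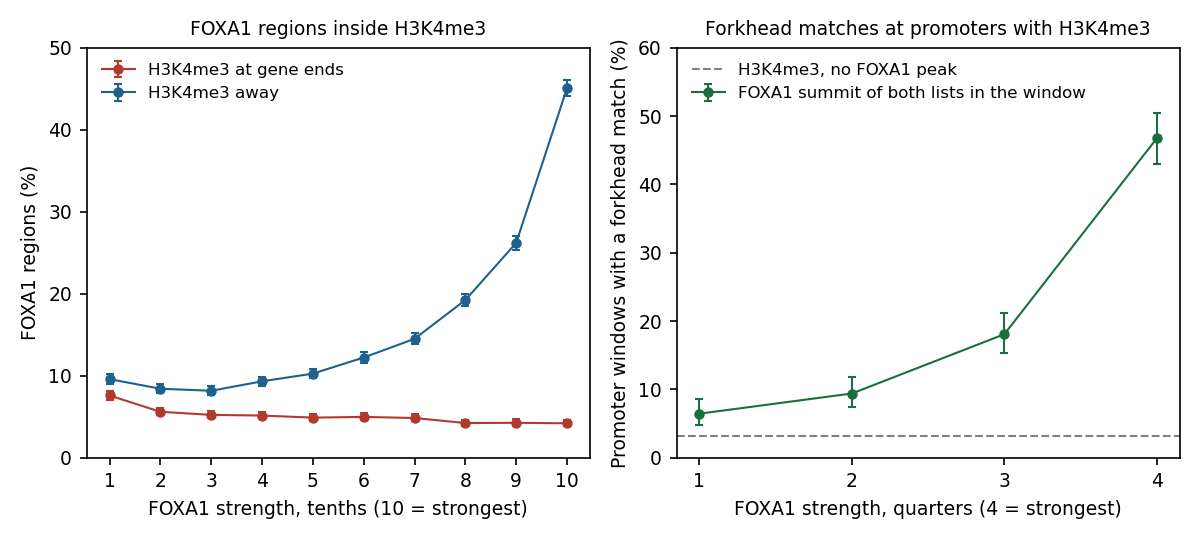
Left: share of FOXA1 regions (%) lying in H3K4me3 at gene ends (red) or away (blue), in 10 equal classes of FOXA1 strength; the away share climbs to 45.1% in the strongest class while the gene-end share stays between 4.21% and 7.60%. Right: share of H3K4me3 promoter windows of 300 bases with a forkhead match, in 4 equal classes of FOXA1 strength, rising from 6.46% to 46.8%, with the 3.13% of windows without a FOXA1 peak dashed; bars are 95% Wilson intervals.

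FOXA1 summits at promoters clustered just upstream of the start. Summits were counted around 16859 annotated starts with H3K4me3, and a summit near several starts was counted at each of them. By this count the 250 bp before the start held 3055 and 3103 FOXA1 summits in list 1 and list 2. The 250 bp before that held 1204 and 1237, and the 250 bp after the start 971 and 974. H3K4me3 summits had the complementary profile, with 1334 and 1366 in the 250 bp before the start, fewer than in the bin upstream of it (2123 and 2137) and than in the bin downstream (6359 and 6381). FOXA1 thus peaked in the bin where H3K4me3 had its local low. The FOXA1 summits inside H3K4me3 and within 1 kb of a start with H3K4me3, 5573 and 5707, were each taken once, to the nearest start. Of these, 62.4% and 62.6% were upstream and 40.9% and 40.8% in the first 250 bp. The median position was 58 and 57 bp upstream. Weak peaks lay there slightly more often than strong ones: the first 250 bp held 37.5% and 36.9% of the peaks in the strongest of 4 classes and 42.4% and 43.5% of those in the weakest.

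**Figure D3:**
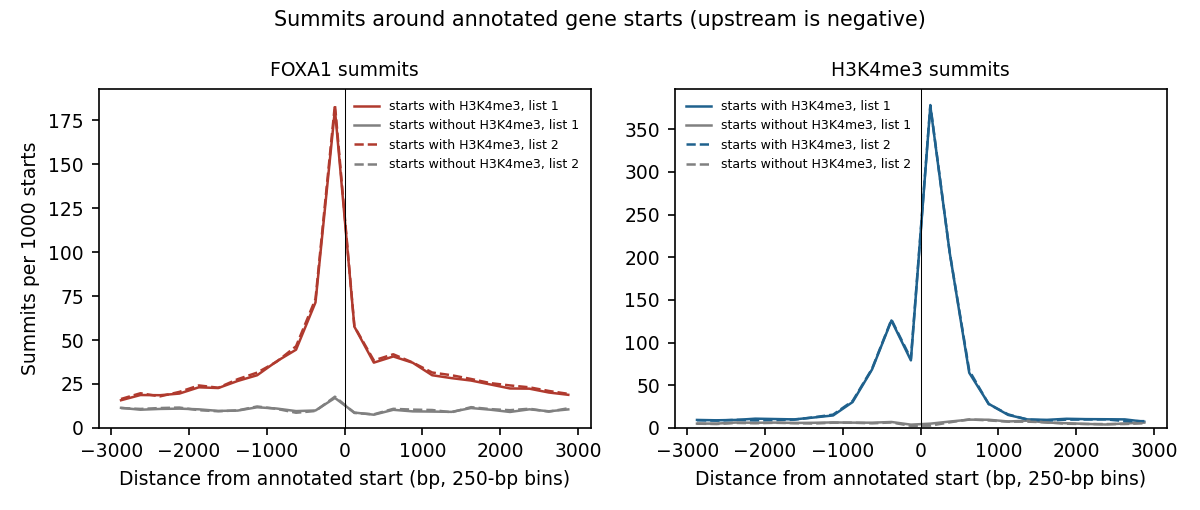
Summits per 1000 annotated starts in 250-bp bins by distance from the start (bp, upstream negative), for FOXA1 (left) and H3K4me3 (right), list 1 solid and list 2 dashed, starts with H3K4me3 in colour and without in grey. A summit near several starts counts at each of them. FOXA1 peaks in the bin before the start, at 181 and 184 per 1000, where H3K4me3 dips to 79.1 in list 1 before reaching 377 after the start.

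Within the H3K4me3 region, FOXA1 summits were less central at gene ends. Of 3 equal parts of a region, the middle one held 36.2% of the summits of either list at gene ends, and 44.7% and 45.1% away, an odds ratio of 0.696 (0.668 to 0.725) and 0.746 to 0.807 over the single pairs. Most of that gap went with width, since the odds ratio was 0.914 (0.864 to 0.966) within width classes. At gene ends the density inside the region was lowest at the rim, 132 and 138 summits per Mb in the outer 250 bp, and 326 and 322 per Mb at 500 to 750 bp inside. Away from gene ends it reached 789 and 799 per Mb at 250 to 500 bp inside. There it was also 512 and 508 per Mb in the 250 bp just outside the edge, against 123 and 124 per Mb in the next 250 bp, so FOXA1 peaks flanked these narrow regions as well as filling them.

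**Figure D4:**
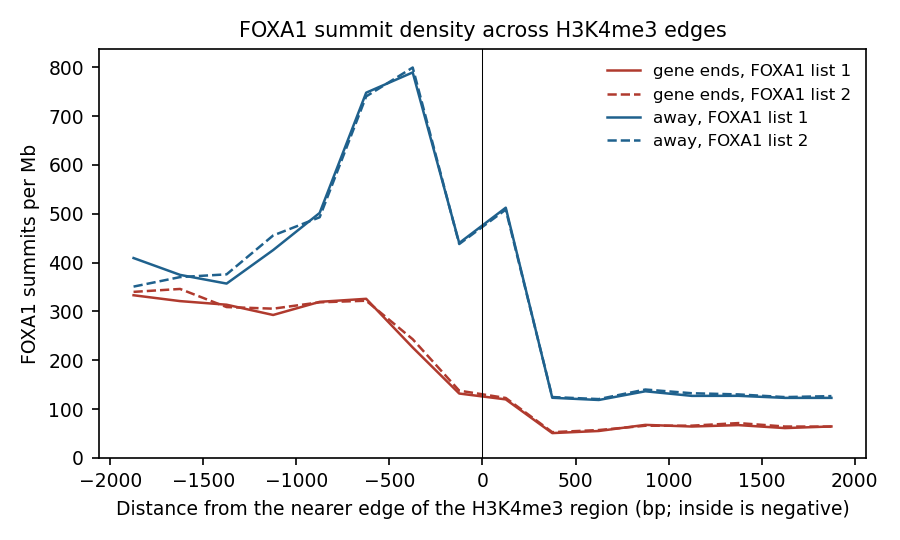
FOXA1 summits per Mb by distance from the nearer edge of the H3K4me3 region (bp, inside negative), at gene ends (red) and away (blue), FOXA1 list 1 solid and list 2 dashed. Away from gene ends density is high up to 250 bp outside the edge, at 512 and 508 per Mb, and at gene ends it falls from 326 and 322 per Mb inside to 120 and 123 per Mb just outside.

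Promoters with FOXA1 carried the other marks more often. H3K27ac, found at active regulatory elements, overlapped 99.1% of gene-end H3K4me3 regions with FOXA1 and 90.0% without, an odds ratio of 11.7 (8.80 to 15.6) and 11 to 12.4 over the single pairs. Put the other way, FOXA1 lay at 45.7% of the gene-end regions with H3K27ac and at 51 of the 760 without it. The ratio was 6.79 within width classes and 3.70 when regions had to overlap reciprocally by 50%. Pol II S5P, the polymerase of initiation and early elongation, was at 67.6% with FOXA1 and 42.6% without, an odds ratio of 2.81 (2.61 to 3.02). FGFR1, the receptor kinase that this study mapped on chromatin, was at 38.0% and 19.7%, an odds ratio of 2.49 (2.30 to 2.70). For Pol II S5P the single pairs gave 2.99 to 3.14, and regions of similar width 1.63 (1.49 to 1.79). For FGFR1 they gave 2.60 to 2.78 and 1.48 (1.36 to 1.62). The single pairs varied only the H3K4me3 and FOXA1 lists, so these ranges leave out the spread between the lists of each readout. Of the peaks of list 1 and list 2, 72.3% and 80.4% were met in the other list for H3K27ac. The shares were 54.5% and 88.0% for Pol II S5P and 93.2% and 36.3% for FGFR1.

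Away from gene ends, H3K27ac was again more frequent with FOXA1 and the other readouts were not. H3K27ac was at 94.9% of the H3K4me3 regions with FOXA1 and 71.0% without. Pol II S5P was at 6.39% with FOXA1 and 8.56% without, and FGFR1 at 3.84% and 5.21%. These regions fall into 4 places. Annotated starts of non-coding genes or further transcripts took 2456 of them, of which 45.8% had FOXA1, close to the share at gene ends. Ends of other genes took 1624, with FOXA1 at 56.0%. The bodies of protein-coding genes took 9311, with 73.2%, and the remaining genome 8393, with 68.1%. The median width was 1529 bp at the annotated starts and 703 and 663 bp in gene bodies and the remaining genome, so the places with most FOXA1 had the narrow H3K4me3.

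The median FOXA1 strength was higher at 3′ ends of genes than at starts, a difference that was not tested. Strand is listed for 79.2% of the protein-coding genes and for none on chromosome 8, where FGFR1 lies, so the starts, 3′ ends and promoter letters of that chromosome were not analysed here. The 9666 H3K4me3 regions at a listed start had FOXA1 in 43.3%, with a median FOXA1 percentile of 57.5. The 591 regions that lay only at a 3′ end had it in 53.1%, with a median FOXA1 percentile of 80.9. Those at 3′ ends were narrow, at a median of 830 bp against 2392 bp, and their H3K4me3 percentile was 48.9 against 83.4. In width, H3K4me3 level and FOXA1 strength the 3′ ends were thus nearer to the regions away from gene ends than to those at starts. With a FOXA1 summit of each list required inside, the shares were 41.1% at starts and 36.7% at 3′ ends.

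By gene, 13303 of 19974 protein-coding genes had H3K4me3 at an end, and 5360 of these (40.3%) had FOXA1 there. A summit of both lists within 1 kb was found at 4792 (36%). Among the marked genes with Pol II S5P 50.2% had FOXA1 (3879 of 7729), and among those without it 26.6% (1481 of 5574). Of the 6671 genes with no H3K4me3 at an end, 9.34% had a FOXA1 region at one.

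Among the 10 genes with the strongest FOXA1 on H3K4me3, several peaks lay at 3′ ends. The authors' fold enrichment of the first, at LOC128071544, was 78.2 in list 1 and 70.5 in list 2 (chr1:147611934-147613030). CCND1, which codes for cyclin D1, followed with 75.7 and 68.4 (chr11:69653576-69655302). Its summit lay 502 bp beyond the gene coordinate 69654474. CCND1 lies in 11q13, amplified in this line, where extra gene copies and stronger enrichment cannot be told apart. RPS3, a protein of the small ribosomal subunit whose end is shared with KLHL35, had 74.1 and 68.4. CELSR2, an atypical cadherin induced by oestrogen, had 70.9 and 67.9 at its 3′ end (chr1:109274564-109275909). At all of these H3K4me3 was of middle strength, between the 53.6 and 65.8 percentile. The transporter gene ABCC11, the tenth, had 61.5 and 58.3 at its 3′ end.

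Starts with strong FOXA1 in that group were RHOH, EFL1 and ZNF282. The peak at RHOH and N4BP2 had folds of 71.3 and 65.8, and its summit lay about 650 bp from the RHOH start, apart from the weaker upstream summit shown above. EFL1, a GTPase of ribosome maturation that shares its region with SAXO2, had 69.7 and 62.4, at 827 bp from the start. ZNF282, a zinc finger repressor, had 66.6 and 61.9 with the summit 60 bp from the start and H3K4me3 at the 98.5 percentile. For PNPLA7 with MRPL41 (65.9 and 61.7) and for HGD, the homogentisate dioxygenase (66.3 and 60.9), no strand is listed. The summits of the 2 lists lay within 15 bp of each other at all 10. H3K27ac covered all of these regions, and Pol II S5P all but those of LOC128071544, RHOH and ABCC11.

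Strong H3K4me3 was also found without FOXA1. At the 8 gene ends with the strongest H3K4me3 among those with no FOXA1 peak of either list, fold enrichment of H3K4me3 was 108 to 109 in list 1 and 111 to 113 in list 2. Among them were the ends of EFR3A, CELSR2, CSF1, NDOR1 with TMEM203, PRIM2 with RAB23, TONSL and NEURL1B. Among these, CSF1 codes for macrophage colony-stimulating factor, PRIM2 for the large subunit of primase and TONSL for a replication-fork repair protein. H3K27ac and FGFR1 were at all 8 and Pol II S5P at all but CSF1. CELSR2 stands in both groups: its other end, chr1:109249119-109250798, had H3K4me3 at 108 and 113-fold and no FOXA1, while the end with FOXA1 had H3K4me3 at 43.1 and 39.4-fold.

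Luminal and oestrogen-responsive genes had FOXA1 more often than the 40.3% of all marked genes. It lay at 13 of 18 marked luminal transcription factor genes (72.2%, 49.1 to 87.5) and at 17 of 23 marked oestrogen receptor targets (73.9%, 53.5 to 87.5). SPDEF led the first group at 62.6 and 53.2-fold, followed by FOXA1 at 31.1 and 27.9 and MYB at 19.0 and 18.9. GATA3, RARA, GRHL1 and TFAP2B were among those that had H3K4me3 with no FOXA1 region. At XBP1, a factor of the unfolded protein response, FOXA1 was near the bottom of the lists at 3.55 and 3.0-fold. Among the targets, after CCND1 and CELSR2, came the trefoil peptide genes TFF3 (29.0 and 30.2) and TFF1 (21.7 and 19.5), STC2 (22.1 and 21.2), which codes for a secreted glycoprotein, and the apoptosis inhibitor BCL2 (17.5 and 18.9). At GREB1, a much used oestrogen-induced gene, FOXA1 reached 4.80 and 3.75. CXCL12, NRIP1, AREG and EGR3 were marked without FOXA1.

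Epithelial genes were closer to the background. Of 20 marked keratin and junction genes 12 had FOXA1 (60%, 38.7 to 78.1), an interval that includes 40.3%. With a window of 3 kb it was 85.0% (64.0 to 94.8) against 53.4% of all marked genes, an interval that leaves the background out. KRT8, a keratin of simple epithelia, had 29.2 and 31.1-fold and shares its region with its partner KRT18. KRT19 had 23.2 and 23.8 in a region of 7041 bp, and ESRP1, an epithelial splicing regulator, 26.7 and 24.9 in one of 6190 bp. CDH1 and EPCAM, which code for adhesion molecules, had H3K4me3 and no FOXA1 region at an end. Of the lists of other cell types, 2 of 8 marked basal and mesenchymal genes had FOXA1, and 2 of 3 haematopoietic and 2 of 4 neuronal and hepatic ones, numbers too small to place against the background.

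Immediate early genes had the highest share of the 15 lists. FOXA1 lay at 22 of 27 marked members (81.5%, 63.3 to 91.8). The median FOXA1 percentile was 74.0 over the 21 with both summits, against 52.2 over the 4792 marked genes with both. DUSP6, a phosphatase of ERK, had 39.2 and 37.9-fold, ZFP36L2, an mRNA decay factor, 38.4 and 31.9, JUNB 34.0 and 33.0 and KLF10 33.0 and 35.8. FOS, EGR1, EGR2, NR4A1 and DUSP5 were marked and had no FOXA1 region. Widening the window to 3 kb raised the list to 96.3% and the share of all marked genes to 53.4%.

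Housekeeping genes were near or somewhat above the background. FOXA1 lay at 41 of 78 ribosomal protein genes (52.6%, 41.6 to 63.3), 15 of 27 respiratory chain genes (55.6%, 37.3 to 72.4), 16 of 33 genes of replication and mitosis (48.5%) and 14 of 30 proteasome genes (46.7%). RPL4 had 38.2 and 38.6-fold, MCM7, a subunit of the replicative helicase, 36.1 and 34.7, and BUB1B, a kinase of the spindle checkpoint, 42.4 and 40.5. Where ribosomal protein genes had a FOXA1 summit of both lists, the median FOXA1 percentile was 52.5, close to the 52.2 of all such marked genes. For respiratory chain genes it was lower, at 36.7. Pol II S5P was at 77 of the 78 ribosomal protein genes and at 58.1% of all marked genes, and its part in these shares was not tested.

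Regulators of chromatin and development did not stand apart from all marked genes by their intervals. The genes of the H3K4 methyltransferase complexes, which place the mark, had FOXA1 at 8 of 16 (50%). Over the 8 with both summits, not wholly the same genes, the median percentile was 24.1, with a range of 4.59 to 84.4. KMT2D had 4.17 and 4.12-fold. Nuclear receptor genes had it at 18 of 35 (51.4%), led by RARB at 46.5 and 45.0. HOX genes had it at 8 of 26 (30.8%, 16.5 to 50). Of 24 marked forkhead genes 10 had FOXA1 (41.7%), and over the 9 with both summits it was strong, with a median percentile of 86.8. FOXP2 had 57.8 and 55.7-fold, FOXB1 23.8 and 23.2, and FOXJ3 23.6 and 19.3. FOXA2, FOXA3, FOXM1 and FOXC1 were marked without it.

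**Figure D5:**
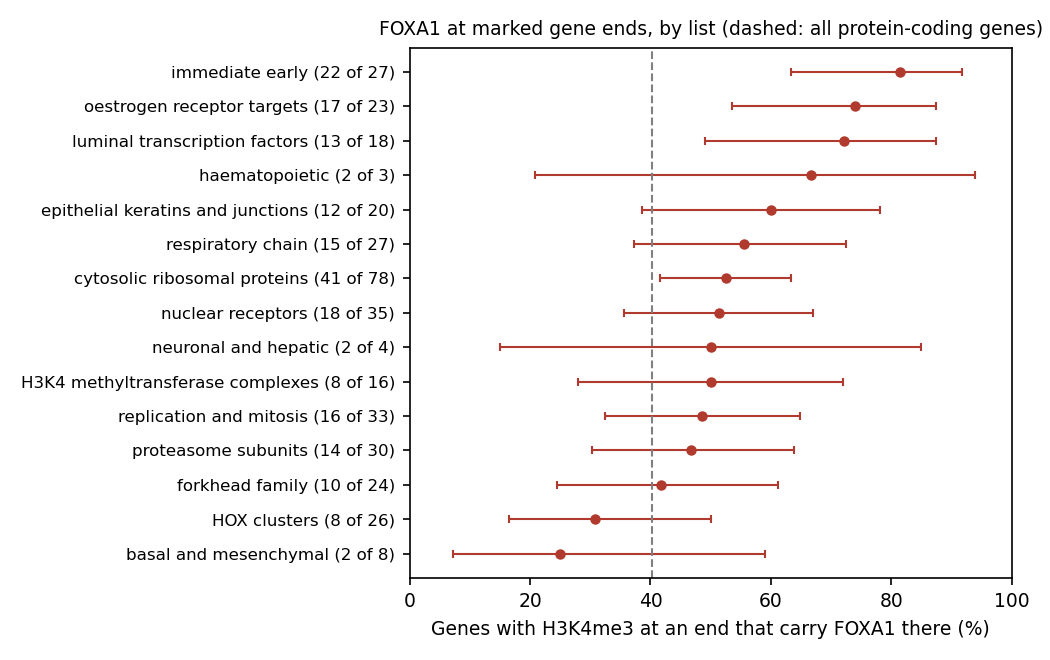
Share of genes with H3K4me3 at an end that carry a FOXA1 region there (%), for 15 gene lists, with counts in the labels and 95% Wilson intervals as bars; the dashed line is the 40.3% of all such protein-coding genes. Immediate early genes (81.5%), oestrogen receptor targets (73.9%) and luminal transcription factors (72.2%) lie highest, and basal and mesenchymal genes (25%) lowest.

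FOXA1 peaks lay along the FOXA1 gene itself. One H3K4me3 region of 14326 bp (chr14:37586792-37601117) covers the gene (37589552 to 37595249, minus strand) and reaches TTC6. It held 8 FOXA1 summits in each list. The strongest, at 31.1 and 27.9-fold, lay 728 bp beyond the 3′ end, and that before the start, shown above, had 14.8 and 15.8. The region also carried H3K27ac, Pol II S5P and FGFR1.

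The 5 strongest FOXA1 peaks that overlapped H3K4me3 away from gene ends mostly lay beside weak H3K4me3. Any overlap counted for them, while the gene-end peaks ranked above had a summit of each list inside H3K4me3. The rankings are therefore not compared. Of the 5 strongest, those nearest to SPRY2 (83.0 and 75.0-fold), TCIM (82.8 and 74.6), DRAM2 (82.4 and 74.6) and CA10 (81.4 and 74.6) overlapped H3K4me3 regions of 405 to 925 bp with H3K4me3 folds of 3.69 to 9.08, and in none of these 4 did a FOXA1 summit lie inside. The first, on chromosome 3 and 402 kb from PROS1 (chr3:93470235-93470922), was unlike them. Its FOXA1 folds of 83.7 and 75.2 were the highest of both lists, at the truncated pileup of 400 fragments, so they are capped values. Its H3K4me3 reached 108 and 113, and all 14 peak lists of the series had a peak there. The region nearest to DRAM2 had a peak in 11 of the 14 lists, that of TCIM in 7, and those of SPRY2 and CA10 in 6 each. No filter for regions of unspecific signal was applied here, and whether the peaks at these 5 places are specific was not tested.

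Forkhead letters were more frequent in promoters with FOXA1. Of 34789 RefSeq promoter sequences, 300 bases each (250 before and 50 after a start), 9.57% held one of the letter groups shown in capitals above on either strand. Among those in H3K4me3 the share was 14.6% (687 of 4719) with a FOXA1 region and 3.13% (344 of 10989) with no FOXA1 peak, an odds ratio of 5.27 (4.61 to 6.03). It was 20.2% (549 of 2721) where a summit of both lists lay in the window, an odds ratio of 7.82 (6.78 to 9.02). TGTTTAC, the match of MYB above, differed most between the groups, at 6.85% against 0.746%. The FOXA1-bound promoters without H3K4me3 held a match in 32.9% (163 of 495), and those with neither mark in 11.9% (2020 of 16974).

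Most promoters with FOXA1 thus had none of these letters, and the share followed FOXA1 strength. From the weakest to the strongest of 4 equal classes of promoters with both summits it was 6.46%, 9.41%, 18.1% and 46.8%. Where a match was present it lay close to the summit: at a median of 10 and 12 bp in list 1 and list 2, with 81.1% and 82.2% within 50 bp. The matches GGGCGG (SP and KLF factors) and CCGGAAG (ETS factors) lay at medians of 48.5 and 50.5 bp and of 63 bp in both lists.

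Base composition moved with FOXA1 as well. The median GC content was 62.3% in H3K4me3 promoters with a FOXA1 region and 68.3% in those with no FOXA1 peak, and forkhead letters are rich in A and T. It was 44.0% in the FOXA1-bound promoters without H3K4me3 and 49.0% in those with neither. Within 5 classes of GC content, added after seeing the data, the forkhead odds ratio was 3.86 (3.37 to 4.43). That for GGGCGG changed sides, from 0.626 to 1.19 (1.09 to 1.30). CCAAT was more frequent with FOXA1 in both ways of counting, at 43.1% against 28.7%, with odds ratios of 1.89 and, within GC classes, 1.56 (1.45 to 1.68). The ratio of observed to expected CpG was about the same, 0.828 and 0.836. No match in a window says only that these letters are not there.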

How the data were processed

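The narrow peak lists of H3K4me3, FOXA1, H3K27ac, Pol II S5P and FGFR1, 2 per target, were used as deposited. The submitters' processing notes name hg38 as the build and list Bowtie2, MACS2, Picard and SAMtools, without versions. The authors deposited a list per library, so peaks were called per sample. Per the deposited columns, a row holds a score (not used), the fold enrichment as a ratio to background, p-value and q-value on the −log10 scale, and the summit offset. All fold enrichments of a FOXA1 or H3K4me3 list are multiples of one step, as a single genome-wide background gives, so no correction for input or local copy number is seen. Names inside the FOXA1 lists read FOXA2; the labels were followed.

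Rows outside chromosomes 1 to 22 and X were left out (0.0501% to 0.217% of the 4 lists). Genes and the 300-base promoter sequences came from RefSeq tables (GRCh38.p14); all 433 list entries matched a symbol. Strand came from the promoter table, which lists no start on chromosome 8; results by start or promoter leave that chromosome out. Regions were the unit, so shares (95% Wilson), odds ratios (95% Woolf), probabilities of the higher value (95% DeLong) and medians carry counting error only, and no p-value was computed. A difference was called where its interval left out 1, or 0.5 for a probability. Computations used pandas 2.3.3, numpy 2.4.6 and scipy 1.17.1 and were tested on simulated data.

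The members and gene lists were chosen with earlier results of these data known. Named genes are the 10 with the strongest FOXA1 on H3K4me3 at an end, the 8 strongest H3K4me3 ends without FOXA1, up to 12 bound luminal, oestrogen-responsive or epithelial genes, the 5 strongest regions away, the 5 widest regions at gene ends and FOXA1; other list members were named after their values were seen. Some genes that the rule or the lists take in are not reported here. Same-numbered lists share only a number.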

Additional observations from a re-analysis of the deposited data

How the results depend on the processing

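Alternatives were a −log10 q-value of at least 5, a FOXA1 summit of each list inside, windows of 500 bp and 3 kb, 50% reciprocal overlap, 5 width classes, leaving out each list, leaving out 8p11-p12 and 11q13, a replicate block and, for promoter letters, 5 GC classes. The lists left out in turn were those of H3K4me3 and FOXA1, never those of the other readouts. Of 124 alternative values, 114 kept their direction and their call, whatever their size. A share counted as kept only if it stayed inside the interval of the main setting. The FOXA1 strength at gene ends against outside H3K4me3 (0.492) did not: it was 0.502 with the stricter q-value and 0.514 (0.506 to 0.521) with 3 kb, on the other side of 0.5 and with 3 kb past it, and 0.485 with the summit inside and 0.489 with 500 bp, past it below. Leaving out 1 list gave 0.487 (without H3K4me3 list 1, past the threshold) to 0.50 (without FOXA1 list 1, not past it). The H3K4me3 strength away from gene ends turned from 0.351 to 0.550 with the summit inside. The share of marked genes with FOXA1 was 53.4% with 3 kb, 36.0% by summit, and 45.7% to 46.6% without 1 FOXA1 list. The cause of these shifts was not tested. Of 60 values over gene lists 6 moved beyond their interval, 5 of them with 3 kb.

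With the replicate number as a block, pairing same-numbered lists, the odds ratio of FOXA1 at gene ends against away was 0.446 and the width probability 0.703, and no call changed. Width classes could not be given for FOXA1 strength, since regions outside H3K4me3 have no H3K4me3 width. Depth is known only as background per position, the pileup of both targets is truncated at 400, a peak missing from both lists may lie below their thresholds, and copy number was not corrected.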

Other observations

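The share of gene-end H3K4me3 regions with FOXA1 varied by chromosome. It was lowest on chromosome X, at 22.6% (95 of 421, 18.8 to 26.8), and on chromosome 21, at 25% (29 of 116), and highest on chromosomes 5 (55.0%, 312 of 567) and 6 (53.4%, 334 of 626). Between the large chromosomes 1 and 2 it was 48.6% against 35.2%. Copy number of these chromosomes was not analysed here, and its part in the shares was not tested.

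The amplified stretches of this line lay at the upper end. In 8p11-p12, taken as 37 to 40 Mb of chromosome 8 where FGFR1 lies, 17 of 20 gene-end H3K4me3 regions had FOXA1 (85.0%, 64.0 to 94.8). In 11q13, taken as 68 to 72 Mb of chromosome 11 where CCND1 lies, 22 of 28 did (78.6%, 60.5 to 89.8). Each list was called against a single background, so extra gene copies and stronger enrichment cannot be told apart here. Without both stretches the odds ratio of FOXA1 at gene ends against away stayed at 0.380.

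Among starts, several of the strongest FOXA1 peaks, named after their values were seen, sat within 100 bp of the start on full H3K4me3. CTSF, which codes for a lysosomal protease, had FOXA1 at 62.2 and 57.0-fold 31 bp from the start with H3K4me3 at the 99.3 percentile. TMEM167B had 61.3 and 56.0-fold at 86 bp with H3K4me3 at the 99.4 percentile. VIPR1, a receptor for vasoactive intestinal peptide, had as strong a FOXA1 peak, 56.5 and 59.2-fold at 31 bp, with H3K4me3 at the 50.6 percentile.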
